A study of Mus musculus with 19 samples.

Results

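Trp53, which encodes the tumour suppressor p53, and Cdkn1a, Sesn2 and Ddit4l, 3 genes grouped with it as its targets, were examined in mouse alveolar type 2 (AT2) organoids and lung adenocarcinoma (LUAD) organoids. The 4 genes were chosen by name from the study's lists of translated open reading frames (ORFs), and they are 4 of the 7266 genes that those lists tie to transcripts of the count tables. They hold 9 of the 22509 transcripts tied to a gene, and the tables list 118489 transcripts in all. All 4 genes had far fewer ribosome footprints and far less RNA in LUAD than in AT2 organoids, in every library.

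The study set normal alveolar epithelium beside its tumour counterpart at the level of translation. Footprints, the stretches of RNA that ribosomes shield from nuclease, were captured by the RiboLace method, which pulls down translating ribosomes on beads carrying a puromycin analogue. There were 3 AT2 and 4 LUAD footprint libraries, 3 AT2 and 4 LUAD RNA libraries, and ORF lists from a further 2 AT2 and 3 LUAD libraries. Every library came from organoids of the C57BL/6 strain that had been on plates for 48 h and had received 100 µM cycloheximide, a blocker of ribosome movement, for 5 min. The labels give no genotype, allele, transgene, animal age or clone for either group. The LUAD ORF libraries carry KP in their titles, which the labels do not spell out. The design text counts 2 AT2 cultures and 3 tumour-derived organoids as independent, and nothing says whether the other libraries of a group came from separate cultures, so p-values measure the spread between these libraries, which may be technical.

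p53 is a transcription factor that is degraded quickly in unstressed cells and accumulates after DNA damage, oncogene signalling or nutrient stress. It binds DNA as a tetramer at paired decamer sites and switches on genes that arrest the cell cycle, start cell death, repair DNA or restrain growth. Cdkn1a encodes p21, the inhibitor of cyclin-dependent kinases through which p53 arrests the cycle. Sesn2 encodes sestrin 2, a leucine-binding protein that holds back the growth kinase complex TOR complex 1 and is induced by p53 and by the stress factor ATF4. Ddit4l encodes a small inhibitor of TOR complex 1 related to Ddit4. AT2 cells make surfactant and renew the alveolar lining, and loss of p53 is frequent in lung adenocarcinoma.

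The start regions of the 4 genes are shown because p53 acts through sites of this kind. RefSeq windows of 300 bases (250 before to 50 after an annotated start, build GRCm38.p6, which is mm10) were searched for the p53 consensus, a run of 20 bases made of a pair of joined decamers and identical on both strands. Spacers between the decamers were not allowed. All 4 genes had a window, and Cdkn1a had a second one. In the lines that follow, 60 bases are printed 5′ to 3′ on the gene's strand with the best match to the consensus in capitals.

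Cdkn1a, chr17:29090908-29090967, plus strand: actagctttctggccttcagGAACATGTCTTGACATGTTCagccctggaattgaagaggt
Trp53, chr11:69580264-69580323, plus strand: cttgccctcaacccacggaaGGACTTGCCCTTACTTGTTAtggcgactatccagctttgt
Ddit4l, chr3:137623562-137623621, plus strand: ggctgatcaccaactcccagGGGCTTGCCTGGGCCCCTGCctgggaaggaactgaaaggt
Sesn2, chr4:132510443-132510502, minus strand: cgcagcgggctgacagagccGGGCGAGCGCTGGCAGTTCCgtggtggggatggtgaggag

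The Cdkn1a match departed from the consensus at 1 of 20 bases and began 51 bases before the start. Of all 32851 promoter windows, 29 (0.0883%) held a match with at most 1 mismatch. The best matches of Trp53, Ddit4l and Sesn2 had 3, 4 and 5 mismatches, levels that 6.29%, 30.2% and 76.6% of all windows reached. The second Cdkn1a window, of a start farther downstream (chr17:29093519-29093818), had 5 mismatches at best. Among 56 of 67 listed p53 targets with a window, 3 (Ccng1, Cdkn1a and Gtse1) had at most 1 mismatch. A match is a description of the letters only, and its absence from a window says nothing of p53 binding elsewhere.

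The AT2 footprint libraries held 3030290 to 3834358 estimated counts and the LUAD footprint libraries 4803129 to 14249573. The AT2 RNA libraries held 4122819 to 10233520 and the LUAD RNA libraries 27181932 to 33203742. Levels are given in CPM, counts scaled to the size of a library and between libraries by the TMM method. AT2 footprint library 1 stood apart, with a rank correlation across genes of 0.82 and 0.81 with the other AT2 footprint libraries, which had 0.955 between them, and a scaling factor of 0.548. In both assays the libraries also fell into sets that crossed the groups: AT2 1 with LUAD 1 and 2 against the rest for footprints, and AT2 1 and 2 with LUAD 1 and 2 against the rest for RNA. These sets were drawn from the data and have no label.

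The labelled AT2 type was checked on 6 tested markers. Of these, 5 (Sftpb, Sftpd, Abca3, Nkx2-1 and Lpcat1) were lower in LUAD in footprints and RNA, and Etv5 passed neither test. The summed footprint level of the 6 was 1066 to 1992 CPM in AT2 and 198.4 to 274.2 CPM in LUAD libraries. Sftpb had 0 footprint counts in every LUAD library, and the lung lineage factor Nkx2-1 had footprints in 1 of the 4 LUAD libraries, at 0.347 CPM. The other 8 AT2 markers of the list were not tested. Sftpb and Nkx2-1 are in AT2 ORF lists alone, so they entered through the group where they were higher. Sftpd and Abca3 are in LUAD ORF lists alone, where they were lower. Of 12 leukocyte markers only Mrc1 and Cd14 had a listed ORF and were tested. Both were higher in LUAD (summed footprint level 5.88 to 6.02 in AT2 against 53.18 to 69.0 CPM in LUAD). Mrc1 and Cd14 are in LUAD ORF lists alone, so they too entered through the group where they were higher. Of 12 fibroblast markers, Bgn and Fn1 had a listed ORF and were tested, Bgn through LUAD ORF lists alone. Bgn rose in LUAD, from 2.15 ± 0.318 to 51.7 ± 21.2 CPM in footprints (log2 change 4.61, adjusted p = 0.000664, edgeR) and by 8.88 in RNA. Fn1 passed neither test, at -0.80 in footprints and -0.54 in RNA. Their sum, mostly Fn1 in footprints, was 1876 to 2304 CPM in AT2 and 817.2 to 1621 in LUAD footprints, and 132.9 to 281.2 in AT2 and 228.8 to 470.7 in LUAD RNA. The endothelial, basal and club markers have no listed ORF and were not analysed here. The part of other cell types in the results that follow was not tested, and in bulk libraries fewer cells that hold a transcript and less of it per cell cannot be told apart.

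The footprint comparison asked how much each gene was translated in tumour organoids against normal ones. All 4 genes fell. In AT2 libraries 1 to 3, Trp53 stood at 55.99, 80.94 and 52.51 CPM. In LUAD libraries 1 to 4 it stood at 1.22, 0, 0.610 and 0.514 CPM. The lowest AT2 library was 43.2 times the highest LUAD library, and LUAD library 2 had no Trp53 footprint, where 3 counts would have been 0.176 CPM. The change was -6.95 ± 0.77 on the log2 scale (SE, adjusted p = 0.000923, edgeR quasi-likelihood test with Benjamini-Hochberg adjustment over 6820 genes). It rests on 587 footprint counts in AT2 and 24 in LUAD.

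Cdkn1a, the p21 gene, had the most footprints of the 4. It stood at 376.9, 343.1 and 310.4 CPM in AT2 and at 20.82, 14, 35.89 and 35.43 CPM in LUAD. The groups did not overlap, and the lowest AT2 library was 8.65 times the highest LUAD library. The change was -3.69 ± 0.35 (log2, SE, adjusted p = 0.000574, edgeR). Footprints on the p21 gene were still numerous in LUAD, with 1441 counts over 4 libraries.

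Sesn2, the gene of sestrin 2, stood at 88.5, 52.1 and 52.25 CPM in AT2. In LUAD it stood at 4.69, 5.27, 5.08 and 5.07 CPM, a narrow range in which no library was high or low. The change was -3.66 ± 0.27 (log2, SE, adjusted p = 0.000246, edgeR), close in size to that of Cdkn1a. AT2 library 1, the library that stood apart, was the highest.

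Ddit4l, the least abundant of the 4, stood at 26.49, 19.05 and 16.39 CPM in AT2. In LUAD it stood at 0.868, 0.586, 0.271 and 0.128 CPM, with 21 counts in all. The change was -5.54 ± 0.65 (log2, SE, adjusted p = 0.00121, edgeR). The AT2 and LUAD libraries did not overlap, and in LUAD library 4 the level was under the 0.193 CPM that 3 counts give.

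Over all genes tested, 21.3% passed the footprint test, 11.5% with a lower and 9.79% with a higher level in LUAD. A fall without overlap between the groups was found for 16.9%. The 4 genes have to be read against a stricter background, since each entered through an AT2 ORF list and none is in a LUAD list. Of the 478 tested genes listed in AT2 alone, 22.6% passed with a lower and 4.18% with a higher level in LUAD, and 28.2% were lower without overlap. Their median change was -0.37, against 0.00 over all genes, so all 4 genes lay far beyond both medians. By size of decrease Trp53 ranked 15, Ddit4l 31, Cdkn1a 59 and Sesn2 60 of 6820. With the TMM scaling taken over all transcripts, the median of all genes moved by 0.149 and the split of calls went from 668 higher and 784 lower to 866 and 612. The 4 changes then ran from -6.80 to -3.52 and all passed.

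**Figure D1:**
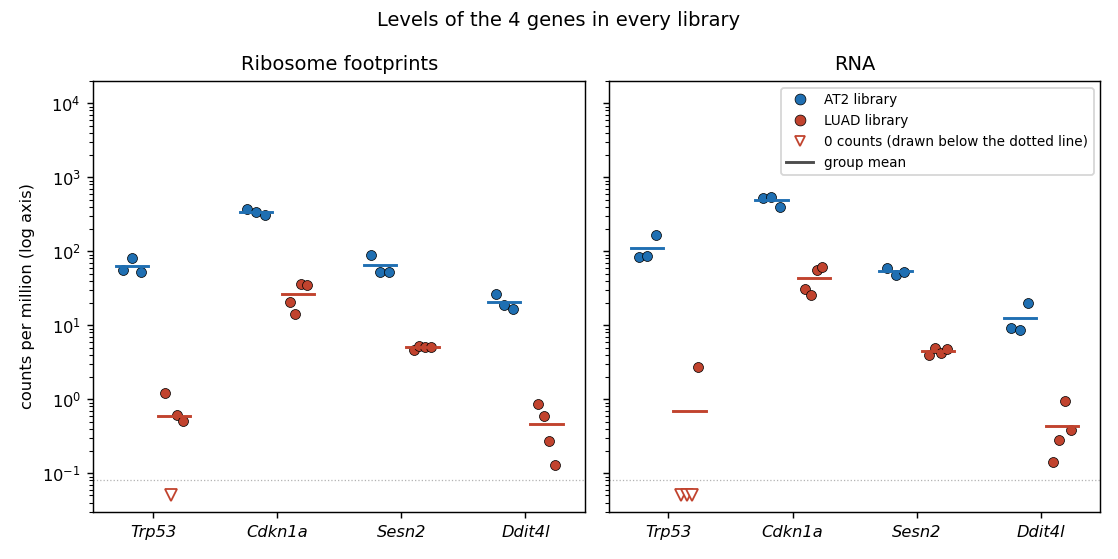
Levels of the 4 genes in every footprint library (left) and RNA library (right), in CPM on a log axis. Points are libraries, horizontal lines are group means, and open triangles under the dotted line are libraries with 0 counts. In both assays every AT2 library of each gene lies above every LUAD library, and 3 of 4 LUAD RNA libraries have no Trp53 count.

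The RNA libraries asked whether the transcripts themselves differed, and they did so for all 4 genes by amounts close to those of the footprints. Trp53 RNA stood at 83.5, 85.88 and 165.6 CPM in AT2. In LUAD libraries 1 to 3 it had 0 counts, where 3 counts would have been 0.0848 to 0.109 CPM, and in LUAD library 4 it had 72 counts, or 2.76 CPM. LUAD library 4 thus differed from the other 3, and it still lay far under every AT2 library. The change was -7.42 ± 1.45 (log2, SE, adjusted p = 0.00585, edgeR over 6939 genes). Without LUAD library 4 every LUAD library is at 0, and with the replicate number as a block that library drops out too, so that neither fit gives a bound on the fold (fitted log2 change -14.15 in both, adjusted p 0.000564 and 0.00106).

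Cdkn1a RNA stood at 531.3, 537.5 and 396.5 CPM in AT2 and at 30.51, 25.9, 55.1 and 60.93 CPM in LUAD. LUAD libraries 3 and 4 were the higher pair, as they were in the footprints. The change was -3.50 ± 0.33 (log2, SE, adjusted p = 0.000238, edgeR). p21 transcripts in LUAD were at 8.83% of the AT2 mean.

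Sesn2 RNA stood at 58.77, 47.97 and 53.21 CPM in AT2 and at 3.986, 4.981, 4.264 and 4.796 CPM in LUAD. Both groups were tight, and the SE was the smallest of the 4. The change was -3.56 ± 0.19 (log2, adjusted p = 2.60e-05, edgeR), the tenth lowest p of all genes. Ddit4l RNA stood at 9.11, 8.56 and 20.26 CPM in AT2 and at 0.141, 0.283, 0.948 and 0.384 CPM in LUAD. AT2 library 3 was the high one for Ddit4l and for Trp53, and the groups did not overlap. The Ddit4l change was -4.83 ± 0.75 (log2, SE, adjusted p = 0.00205, edgeR).

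In RNA, 36.9% of genes passed the test, 18.4% with a lower and 18.5% with a higher level in LUAD. A fall without overlap was found for 21.6% of all genes. Of the 495 genes listed in AT2 alone, 29.3% passed with a lower and 10.5% with a higher level, and 34.3% were lower without overlap. With the scaling over all transcripts the median moved by 0.172 and the calls went from 1286 higher and 1275 lower to 1795 and 912, with all 4 genes still lower.

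The falls were present within both library sets and without AT2 footprint library 1. Without that library the footprint changes of Trp53, Cdkn1a, Sesn2 and Ddit4l were -7.09, -3.63, -3.39 and -5.37, all past the test. In the footprint set of AT2 1 with LUAD 1 and 2, the AT2 level was 92.2 times the LUAD level for Trp53, 21.6 times for Cdkn1a, 17.8 times for Sesn2 and 36.5 times for Ddit4l. In the other footprint set the ratios were 118.8, 9.16, 10.3 and 88.8. In the RNA set of AT2 3 with LUAD 3 and 4 alone, Trp53 did not pass (-6.92, adjusted p = 0.183, edgeR), and that fit assumes that the single AT2 library varies as the LUAD libraries do. The footprint fit of AT2 1 with LUAD 1 and 2 rests on the same assumption, and its single AT2 library is the one that stood apart. In the set of each assay with more than 1 AT2 library, all 4 genes passed. More genes in all passed in those sets than with all libraries, as counted in the closing section, so passing there carries less weight.

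Footprints per RNA were tested in 1 model of all 14 footprint and RNA libraries, as the term that lets the LUAD effect differ between assays. None of the 4 genes passed, at the adjusted or at an unadjusted p of 0.05, beside 0.748% of 7086 genes that did (0.494% lower and 0.254% higher). Sesn2 had the tightest estimate: its footprints per RNA differed by -0.07 between LUAD and AT2 on the log2 scale (95% interval -0.78 to 0.64). For Cdkn1a the difference was -0.14 (-1.22 to 0.94). These intervals do not part a moderate change in either direction from none. For Ddit4l it was -0.71 (-2.83 to 1.41) and for Trp53 0.44 (-3.46 to 4.35), intervals too wide to tell a large change from none, with 24 footprint and 72 RNA counts of Trp53 in LUAD. The signs for Cdkn1a and Sesn2 carry nothing, since scaling over all transcripts turned them to 0.19 and 0.25. Within AT2, log2 footprints over RNA were -0.86 ± 1.14 (SE) for Trp53, -0.55 ± 0.38 for Cdkn1a, 0.22 ± 0.25 for Sesn2 and 0.68 ± 0.70 for Ddit4l.

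**Figure D2:**
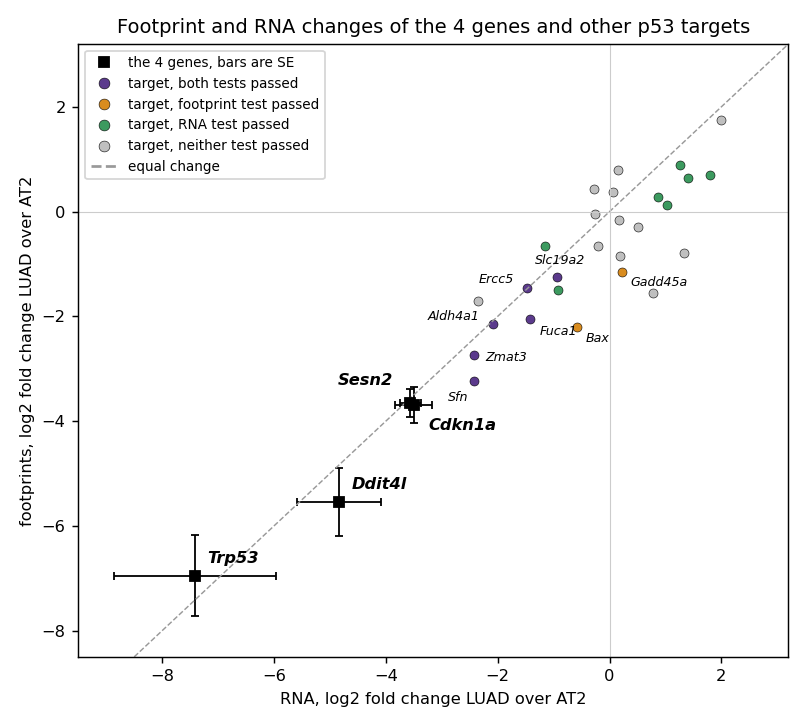
Log2 fold change of footprints (vertical) against RNA (horizontal), LUAD over AT2, for the 4 genes (squares with SE bars) and the other p53 targets tested in both assays (circles, coloured by which test they passed). The 4 genes lie near the dashed line of equal change, from -3.50 to -7.42 in RNA and from -3.66 to -6.95 in footprints. Named circles passed the footprint test.

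Levels between the 4 genes were compared per length, in TPM, a level scaled for transcript length and for the library's total. In AT2 footprints Cdkn1a was highest at 181 ± 65.9 TPM (SD, n = 3). Trp53 followed at 30.1 ± 18.9 and Sesn2 at 13.5 ± 3.45 TPM, and the libraries of these 2 genes overlapped. Ddit4l was lowest at 5.71 ± 1.95 TPM, with each library under each Sesn2 library. In AT2 RNA the order was the same, at 293 ± 90.0, 68.1 ± 15.5, 16.7 ± 3.37 and 4.8 ± 1.59 TPM, with no overlap between neighbours.

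In LUAD the order changed: Trp53 dropped from the second to the third place. LUAD footprints stood at 19.5 ± 7.05 TPM for Cdkn1a, 1.67 ± 0.188 for Sesn2, 0.381 ± 0.352 for Trp53 and 0.199 ± 0.152 for Ddit4l (SD, n = 4). Trp53 and Ddit4l overlapped there. In LUAD RNA the same genes stood at 22.9 ± 7.18, 1.31 ± 0.201, 0.381 ± 0.762 and 0.156 ± 0.111 TPM, and Trp53 overlapped both of its neighbours.

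The ORF lists give the footprint support for the proteins themselves, as P-sites, the codon positions held by the ribosome, counted by reading frame. All 4 genes are in the list of AT2 ORF library 2 alone, which covers 2165 genes. They are absent from the list of AT2 library 1, which covers 1558 genes, and from the 3 LUAD lists, which cover 2613 to 5212 genes each. Of the genes in the AT2 library 2 list, 85.5% are also in a LUAD list, 24.5% are in the other AT2 list and 12.3% are in neither. An ORF enters a list only with enough footprints to show its frame, and no listed p-value exceeds 0.05, so absence from a list is not absence of translation. No test was made between 2 and 3 lists.

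The Trp53 coding ORF had 390 codons (chromosome 11, 69586891 to 69591431, plus strand) with 44 in-frame P-sites of 92. In the authors' deposited values it stood at 26.49 RPKM, rank 467 of 3097 annotated ORFs of that list. The share of P-sites in frame was 47.8%, with an exact binomial interval of 37.3 to 58.5% that covers counting error only. No other ORF of the 4 genes had a lower bound as high. A further ORF of 74 codons was listed on the Trp53 transcript ENSMUST00000147512.1, which the list types as lncRNA. It spans 69587412 to 69587636, between the ends of the coding ORF, with 8 in-frame P-sites of 14 (57.1%, interval 28.9 to 82.3%). Its peptide shares no more than 3 residues in a row with the p53 ORF. Whether its footprints come from the coding transcript was not tested.

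Cdkn1a had an ORF of 159 codons (chromosome 17, 29098408 to 29099393, plus strand), listed on 3 transcripts, and one of 185 codons that starts upstream at 29093969 and ends at the same base. The longer ORF contains all of the shorter, with 26 codons added at its start. In-frame P-sites numbered 32 in both, of 71 and 70 (45.1%, interval 33.2 to 57.3%, and 45.7%, interval 33.7 to 58.1%), so the count was no higher with the added 26 codons. The Sesn2 ORF had 480 codons (chromosome 4, 132493716 to 132510153, minus strand) and only 10 in-frame P-sites of 19 (52.6%, interval 28.9 to 75.6%). The Ddit4l ORF had 193 codons (chromosome 3, 137624183 to 137626456, plus strand), with 6 in-frame P-sites of 9 (66.7%, interval 29.9 to 92.5%). The intervals of the 74-codon Trp53 ORF, the 159-codon Cdkn1a ORF, Sesn2 and Ddit4l reach down to an even split over the 3 frames. At this depth their summed counts alone thus do not part the frame from an even split. All 6 ORFs were listed by the authors at a p-value of at most 0.05, so being listed already selects for a leading frame. Deposited values were 47.26 RPKM for the shorter Cdkn1a ORF, 4.89 for Sesn2 and 7.30 for Ddit4l, an order of Cdkn1a, Trp53, Ddit4l and Sesn2.

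**Figure D3:**
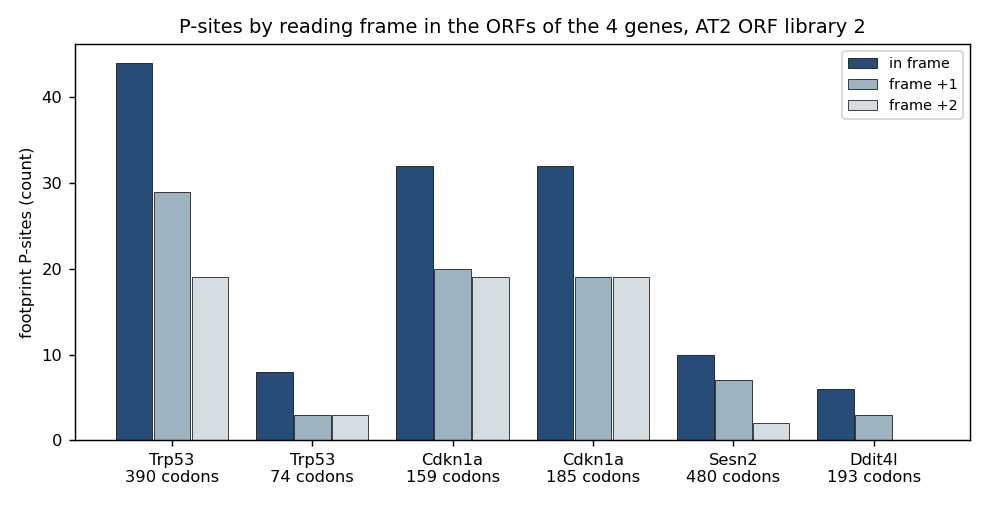
Footprint P-sites (count, vertical axis) in the 3 reading frames of the 6 ORFs of the 4 genes in AT2 ORF library 2. The frame of the ORF holds the most P-sites in each, from 44 for the 390-codon Trp53 ORF down to 6 for Ddit4l. Being listed already selects for a leading frame.

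The comparison by transcript was fitted over all transcripts of the tables. It called 7.31% of 25939 transcripts in footprints and 10.1% of 29481 in RNA, and of these 3.47% and 3.40% were lower and 3.85% and 6.66% higher in LUAD, as shares of the transcripts tested. In footprints, all 6 tested transcripts of the 4 genes passed with a lower level. In RNA, 4 of 6 tested passed. Calls at this level were fragile: with the replicate number as a block, 0 transcripts passed in footprints and 923 instead of 2964 in RNA. In that RNA fit the Ddit4l transcript no longer passed (adjusted p = 0.131, edgeR).

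Sesn2 and Ddit4l each have 1 transcript tied to them by the ORF lists, so their transcript values repeat the gene. Other transcripts of the 4 genes, if the tables hold any, were not counted. For ENSMUST00000030724.8 of Sesn2 the changes were -3.52 in footprints (adjusted p = 0.00272) and -3.39 in RNA (0.000825, edgeR). For ENSMUST00000053855.7 of Ddit4l they were -5.35 (0.0120) and -4.64 (0.0196, edgeR). Without LUAD footprint library 3, or without LUAD RNA library 2 or 4, Ddit4l missed the threshold in that assay (adjusted p 0.0502, 0.0561 and 0.0605).

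The ORF lists tie 4 transcripts to Cdkn1a, all with the p21 coding sequence, and shares are of the counts of these tied transcripts. ENSMUST00000023829.7, of 1913 bases, took 98.3 to 100.0% of the gene's RNA counts in AT2 and 97.4 to 100.0% in LUAD. It fell by 3.36 in footprints (log2, adjusted p = 0.00516) and by 3.35 in RNA (adjusted p = 0.00283, edgeR). ENSMUST00000119901.8, of 922 bases, took 16.5 to 27.2% of the footprint counts in AT2 and 5.3 to 31.9% in LUAD. In RNA it took 0.2% of the pooled AT2 counts and none in LUAD. The short transcript was thus assigned counts almost only in footprints, in both tissues. It shares the coding sequence of 480 bases with the 1913-base transcript, and 308 against 1329 bases follow that sequence. How far footprints can tell the 2 apart was not tested, so these shares do not show that the short transcript was translated. The footprint change of the short transcript was -3.63 (adjusted p = 0.0315, edgeR). That call missed the threshold without any 1 of 6 of the 7 libraries, LUAD library 2 being the exception (adjusted p 0.0556 to 0.0879). ENSMUST00000122348.2 had 115 footprint counts in AT2, all in library 1, which stood apart, and 5 in LUAD. ENSMUST00000233296.1, the transcript of the longer ORF, had 26 footprint counts in AT2, again all in library 1, and did not pass in RNA (-3.10, adjusted p = 0.402, edgeR).

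The lists tie to Trp53 2 coding transcripts of 1772 and 1771 bases, ENSMUST00000005371.11 and ENSMUST00000108658.9, on which the same 390-codon ORF is listed. The second took 57.1 to 66.4% of the gene's AT2 footprints. In AT2 RNA it took 67.0, 34.3 and 65.9% in libraries 1 to 3, so library 2 had the shares the other way round. In every LUAD library with a Trp53 count the split was 33.6 to 35.1% against 64.9 to 66.4%. How far the reads can tell such like transcripts apart was not tested. In footprints both passed (-6.71 with adjusted p = 0.0141, and -6.60 with adjusted p = 0.0164, edgeR). In RNA the first passed (-7.46, adjusted p = 0.0404) and the second did not (-6.99, adjusted p = 0.0568, edgeR), although with the replicate block it did (adjusted p = 0.0319). Leaving out 1 library undid the call of the first in RNA for each library but LUAD 4 (adjusted p 0.0641 to 0.107) and that of both in footprints without LUAD library 3 or 4 (adjusted p 0.0564 to 0.0660). Without AT2 footprint library 2 the second missed too (adjusted p = 0.0516). The lncRNA-type transcript had 10 footprint counts, all in AT2 library 1, and 6 RNA counts, and was not tested.

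**Figure D4:**
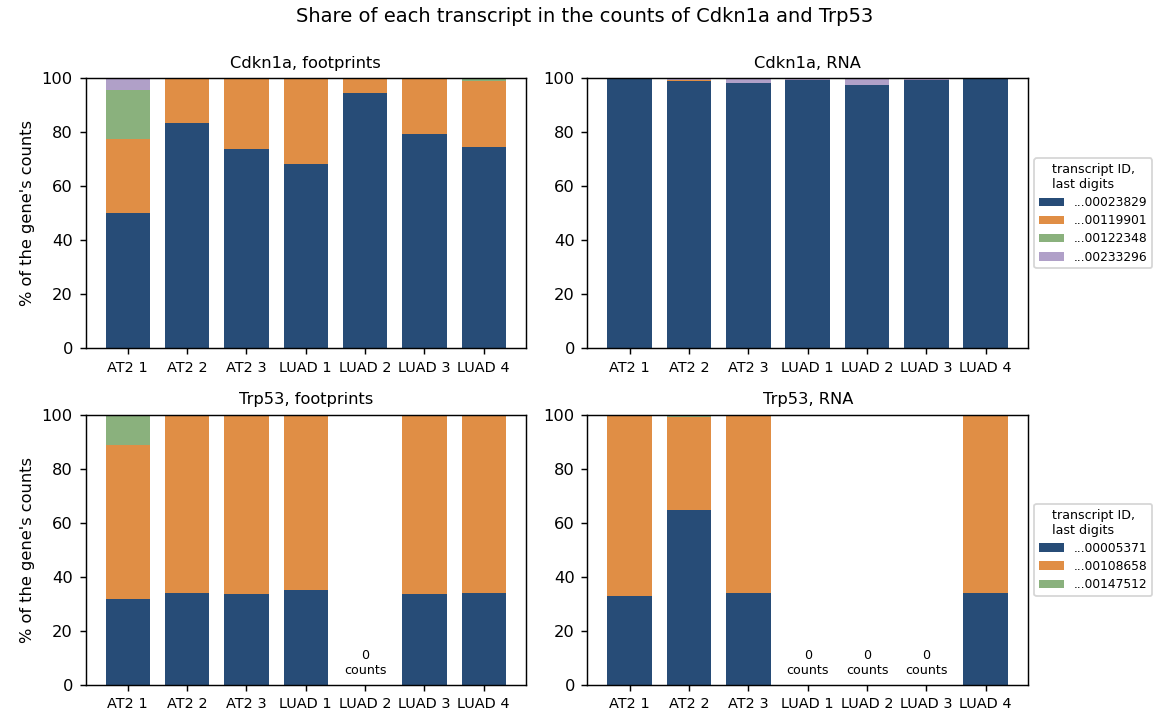
Share of each transcript in the estimated counts of Cdkn1a (top) and Trp53 (bottom), for footprints (left) and RNA (right). Shares are in percent, per library, of the counts of the transcripts that the ORF lists tie to the gene. The 922-base Cdkn1a transcript takes 5.3 to 31.9% of footprints and at most 0.4% of RNA, and AT2 RNA library 2 has the 2 Trp53 coding transcripts in the reverse proportion.

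Reads that Trp53 may share with its pseudogene Trp53-ps (chromosome 17, 54419597 to 54421236) or with the adjacent gene Wrap53 (chromosome 11, 69561754 to 69580250) were not tested, since neither has a transcript tied to it here. Trp53 itself lies at 69580348 to 69591873, directly beyond the end of Wrap53.

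Regulators of p53 were read from a list of 18 genes, of which 10 were tested. In footprints 2 were higher in LUAD and 0 lower (edgeR, and 1 lower at an unadjusted p under 0.05, 0 with DESeq2). The shares over all genes were 9.79% higher and 11.5% lower. Cdkn2a, whose alternative reading frame encodes the Mdm2 antagonist ARF, stood at 51.0 ± 11.7 CPM in AT2 and 291 ± 62.4 CPM in LUAD footprints (SD, n = 3 and 4), a log2 change of 2.51 ± 0.26 (SE, adjusted p = 0.000729, edgeR). In RNA it changed by 3.15 ± 0.26. Its sums do not part the ARF frame from that of the kinase inhibitor p16. Usp7, a deubiquitinase of Mdm2 and p53, rose by 0.89 ± 0.18 in footprints, and Rchy1, a ubiquitin ligase for p53, rose by 0.53 ± 0.18 in RNA alone, a call that several left-out libraries ended (adjusted p up to 0.149). The Mdm2 partner Mdm4 passed neither test, and its footprints ran from 10.3 to 106 CPM within AT2.

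The 64 other p53 targets of the lists give the wider p53 programme. In footprints 28 were tested, of which 9 fell, 0 rose and 19 did not pass (edgeR, 14 lower and 0 higher at an unadjusted p under 0.05, 12 and 0 with DESeq2). Over all genes 11.5% were called lower and 9.79% higher. The median change of the targets was -0.73, beside 0.00 over all genes. In RNA 29 were tested, of which 8 fell and 6 rose, beside 18.4% lower and 18.5% higher over all genes, so the share that rose was near the background. Their RNA median was 0.06, beside 0.03 over all genes. The footprint count depended on the libraries and the scale. It was 11 lower and 1 higher without AT2 footprint library 1, 10 and 6 in the set of AT2 1 with LUAD 1 and 2, 5 lower without LUAD library 3 or 4, and 2 lower (Sfn and Zmat3) with limma on TPM. For footprints per RNA, 0 of 30 passed (edgeR, 8 lower and 0 higher at an unadjusted p under 0.05, 4 lower with DESeq2). Over all genes 0.494% were called lower and 0.254% higher with edgeR, and DESeq2 called more, as counted in the closing section. The share of all genes at an unadjusted p was not counted, so the 8 lower targets cannot be set against a background. On simulated data the edgeR test of footprints per RNA recovered 4.5% of 2-fold changes, so the lack of calls does not show a lack of change.

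Among the 5 other tested targets that arrest the cycle, 3 fell in footprints, and in RNA 2 fell and 1 rose. Over all genes 11.5% fell in footprints, and 18.4% fell and 18.5% rose in RNA. Sfn and Zmat3 fell in both. Sfn encodes the 14-3-3 sigma protein, which keeps cyclin B from the nucleus, and it went from 1224 ± 404 to 130 ± 19.3 CPM in footprints (log2 change -3.24 ± 0.28, adjusted p = 0.000457, edgeR). In RNA it changed by -2.43 ± 0.21. Zmat3, which encodes an RNA-binding protein, changed by -2.74 ± 0.28 in footprints and by -2.42 ± 0.23 in RNA. Gadd45a, a stress protein gene, fell in footprints alone (-1.15 ± 0.27, adjusted p = 0.0188, edgeR), with an RNA change of 0.22 that did not pass. Plk3, a stress kinase gene, rose in RNA alone (1.79 ± 0.42).

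Of the death targets, 1 of 7 tested fell in footprints, and in RNA 1 of 8 fell and 2 rose. These counts are near the shares over all genes, 11.5% lower in footprints and 18.4% lower and 18.5% higher in RNA. Bax, whose product opens the outer mitochondrial membrane, fell in footprints by 2.21 ± 0.37 (log2, SE, adjusted p = 0.00543, edgeR), while its RNA change of -0.59 ± 0.20 missed the threshold (adjusted p = 0.0529). That Bax fall was not called with limma on TPM. Aen, a nuclease gene, fell in RNA (-0.92 ± 0.29). Bid, a partner of Bax, and Perp, a desmosome and death gene, rose in RNA by 1.25 ± 0.19 and 1.02 ± 0.34.

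Of the metabolic and stress targets besides Sesn2 and Ddit4l, 2 of 7 tested fell in footprints, and in RNA 2 of 8 fell and 3 rose. The shares over all genes were 11.5% lower in footprints, and 18.4% lower and 18.5% higher in RNA. Aldh4a1, a mitochondrial enzyme of proline breakdown, changed by -2.14 ± 0.32 in footprints and -2.09 ± 0.27 in RNA, and Fuca1, a lysosomal fucosidase, by -2.05 ± 0.21 and -1.42 (both footprint calls were lost with limma on TPM). Gls2, the glutaminase that p53 induces, had 0 RNA counts in all 3 AT2 libraries and 6.73, 10.39, 3.75 and 6.29 CPM in LUAD. Gls2 is in LUAD ORF lists alone, so it entered through the group where its RNA was higher. Its footprints were not tested on their own, and its footprints per RNA did not pass (-7.80, adjusted p = 0.196, edgeR). Gpx1, a glutathione peroxidase, and Prkab1, a subunit of the energy sensor AMPK, rose in RNA by 0.87 ± 0.26 and 1.41 ± 0.35. Of the DNA repair targets, Ercc5 fell in both assays (-1.46 ± 0.41 and -1.47 ± 0.23) and the polymerase gene Polk fell in footprints (-1.19 ± 0.28). Of the remaining targets, the thiamine transporter gene Slc19a2 fell in both assays (-1.24 ± 0.36 and -0.95 ± 0.25) and Tob1, an antiproliferative gene, in RNA (-1.16 ± 0.36). The footprint calls of Gadd45a, Polk, Ercc5 and Slc19a2 and the RNA calls of Aen, Perp, Gpx1, Prkab1, Plk3, Tob1 and Slc19a2 were each lost when some single library was left out.

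In the ORF lists, 17 of the 67 p53 targets (Cdkn1a, Sesn2 and Ddit4l included) were in an AT2 list and 27 in a LUAD list. There were 7 in AT2 lists alone, namely Cdkn1a, Ddit4l, Sesn2, Polh, Sco2, Trp53inp1 and Zmat3, 17 in LUAD lists alone and 10 in both. Of all 7266 genes with a listed ORF, 554 were in AT2 lists alone, 4113 in LUAD lists alone and 2599 in both. Among the 7 targets in AT2 lists alone, Polh, Sco2 and Trp53inp1 are the 3 not described above. None of these 3 passed in footprints or RNA. In footprints Trp53inp1, an autophagy and death gene, changed by -1.71 (adjusted p = 0.0511), Sco2, a cytochrome oxidase assembly gene, by -1.56 (adjusted p = 0.102) and Polh, a repair polymerase gene, by 0.44 (adjusted p = 0.521, edgeR).

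A paralogue each of Sesn2 and Ddit4l was measured. Sesn3 stood at 143 ± 46.5 CPM in AT2 and 50.8 ± 25.7 CPM in LUAD footprints and fell by 1.49 ± 0.42 (log2, SE, adjusted p = 0.0393, edgeR), a call that several left-out libraries ended. In RNA it changed by -2.25 ± 0.17 (adjusted p = 0.000112, edgeR). Ddit4 did not pass in footprints (-0.84 ± 0.34, adjusted p = 0.115, edgeR) or in RNA (0.19 ± 0.51, adjusted p = 0.789). The differences between paralogues were not tested. Mdm2, Ccng1, Sesn1 and Cdkn1b, which were also to be named, have no listed ORF and were not analysed here.

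The cyclins, kinases and other proteins that p21 binds or holds in check were read from a list of 16 genes, 13 of them tested. In footprints 4 rose (edgeR, 0 fell, with 1 at an unadjusted p under 0.05 and 0 with DESeq2) and in RNA 8 rose and 0 fell (1 and 0), with medians of 1.05 and 1.06, beside 0.00 and 0.03 over all genes. Over all genes 9.79% rose in footprints and 18.5% in RNA. Cdk6, a kinase of the G1 phase, rose by 2.85 ± 0.49 in footprints and 2.37 ± 0.33 in RNA. Ccnb2, a mitotic cyclin, rose by 2.33 ± 0.30 and 2.76 ± 0.57. Cdk2, the kinase p21 inhibits most directly, rose by 1.17 ± 0.32 and 1.06 ± 0.32, calls that most left-out libraries ended, and Rbl1, a pocket protein, by 1.11 and 1.30. Ccna2, the cyclin A gene, rose in RNA (2.70 ± 0.56) but did not pass in footprints (1.90, adjusted p = 0.0794, edgeR). The D cyclins Ccnd1, Ccnd2 and Ccnd3 passed neither test.

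TOR complex 1, on which sestrin 2 and the Ddit4l product act, and its GATOR and TSC regulators were read from a list of 23 genes. Of 14 tested in footprints, 2 fell, namely the kinase gene Mtor (-1.19 ± 0.18, adjusted p = 0.00376, edgeR) and the GTPase gene Rraga (-0.80 ± 0.21, lost without any 1 of 6 of the 7 libraries). Mtor was not called with limma on TPM. Of 15 tested in RNA, 5 fell (Depdc5, Castor2, Tsc2, Rraga and Rragc) and 2 rose (Rheb, the GTPase that activates the complex, by 0.97 ± 0.15, and Seh1l by 1.01 ± 0.23, a call lost without AT2 library 2 with adjusted p = 0.0522). Of the 5 that fell, Castor2 was lost with the replicate block (adjusted p = 0.179), without the filter on low counts, with scaling over all transcripts, with limma on TPM and without any 1 of 6 of the 7 libraries (adjusted p up to 0.171). Depdc5, Tsc2 and Rragc were lost without some single libraries (adjusted p up to 0.109, 0.0725 and 0.0628, edgeR), and Rragc also with scaling over all transcripts (0.0678). Rheb was the single gene of the list to pass for footprints per RNA (-1.03, adjusted p = 0.0483, edgeR), a call lost without most single libraries (adjusted p 0.0146 to 0.175), without the filter on low counts and with scaling over all transcripts. For comparison with the list counts, 11.5% of all genes fell in footprints, and 18.4% fell and 18.5% rose in RNA.

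ATF4 is the other stress factor that induces Sesn2. Of 11 genes tested on a list of 15 that holds Atf4 and its targets, 0 passed in footprints (edgeR, 1 lower and 1 higher at an unadjusted p under 0.05 and with DESeq2). In RNA 5 rose and 1 fell, beside 18.5% higher and 18.4% lower over all genes. The rises of Asns and Atf4 were lost when some single libraries were left out (adjusted p up to 0.146 and 0.14, edgeR). Asns was also lost with the replicate block (adjusted p = 0.0935, edgeR) and with limma on TPM. Phgdh and Shmt2, enzymes of serine and glycine synthesis, rose by 1.59 ± 0.26 and 1.72 ± 0.27, Cebpb by 1.19 ± 0.28, and Nupr1 fell by 1.29 ± 0.42 (log2, SE), a call lost without AT2 library 1 or 2 or LUAD library 3 or 4 (adjusted p 0.0732 to 0.125, edgeR).

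**Figure D5:**
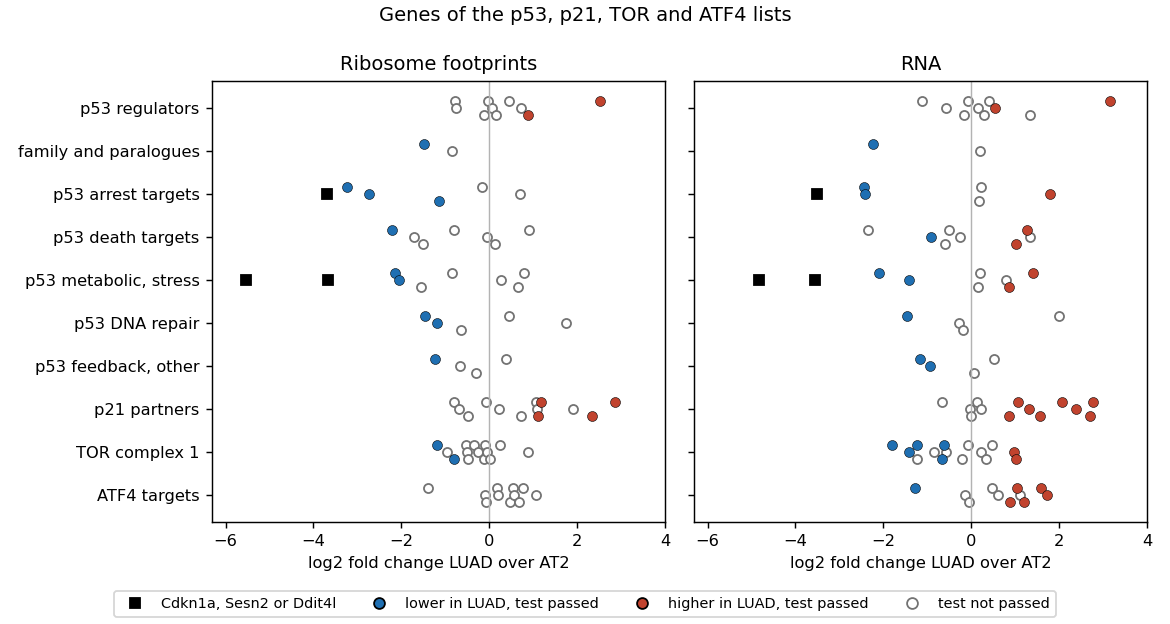
Log2 fold change LUAD over AT2 of the tested genes of each list, for footprints (left) and RNA (right). Filled circles passed the test (blue lower, red higher), open circles did not, and black squares are Cdkn1a, Sesn2 and Ddit4l, which lie to the left of every other gene in their lists. Genes with 0 AT2 counts are left out.

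The genes whose pattern over the 14 libraries was most like each of the 4 were sought among 6711 genes tested in both assays, by the root mean square difference of log2 CPM after each gene was centred on its own mean. For Cdkn1a they were the surfactant protein gene Sftpd (0.416), Sesn2 (0.618) and the zinc transporter gene Slc39a8 (0.627). For Sesn2 they were the adhesion gene Icam1 (0.305), Lhfp (0.370) and the monoamine oxidase gene Maoa (0.447), with Cdkn1a at rank 10. For Ddit4l they were the creatine kinase gene Ckb (0.888), Sesn2 (0.907) and Tmem64 (0.938), with Cdkn1a at rank 12. Taken from the other side, Ddit4l was at rank 84 from Cdkn1a and at rank 65 from Sesn2. All of these nearest genes passed with a lower level in LUAD in both assays. They were chosen for likeness to genes that fell in these same libraries, so this follows from the choice. The genes nearest to Trp53 were farther from it: the peptidase gene Dpp4 (1.49), Slco2a1 (1.497) and Hspb8 (1.502), and Ddit4l, the nearest of the other 3, stood at rank 21 (2.08). Seen from the other 3 genes, Trp53 was far down among the 6711: at rank 5067 from Cdkn1a, 5476 from Sesn2 and 508 from Ddit4l. These distances are descriptions of genes that share libraries and depth.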

How the data were processed

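Footprint and RNA libraries of AT2 and LUAD organoids from mice were compared. The count tables hold kallisto estimated counts and TPM values for each transcript, made by the authors per the submitters' processing notes and the file headers. Neither the kallisto version nor the transcript release is named by any source read for this work. The ORF lists hold, per the file headers, P-site counts by reading frame, an in-frame RPKM value and a p-value per ORF, all made by the authors on mm10. No such source names the software that called the ORFs. For RNA libraries the labels repeat the extraction text written for footprints.

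Estimated counts were summed over the transcripts that the ORF lists pair with a gene (65.0 to 70.0% of counts) and rounded. Genes were tested with edgeR 4.0.16 in R 4.3.3 (quasi-likelihood, TMM scaling, filter on low counts, Benjamini-Hochberg adjusted p under 0.05), transcripts likewise, and footprints per RNA as an interaction term. Library sizes were the totals over all transcripts. The fits were tested on simulated data, with changes put into features of at least 50 mean counts. Of 2-fold changes, 14.9% were recovered in footprints, 13.4% in RNA and 4.5% in footprints per RNA. Of 16-fold changes, 92.4, 95.5 and 92.4% were recovered. The transcript fits recovered 0% of 2-fold changes, and 21.2% (footprints) and 40.9% (RNA) of 16-fold changes. A gene that did not pass may thus still have changed by 2-fold or more. DESeq2 1.42.0, limma 3.58.1 on log2 TPM (pseudocounts 0.5 and 1), scaling over all transcripts, no filter on low counts, the replicate number as a block and each library left out were alternatives, and library sets were added after the data were seen. No replicates differed by as little as sampling noise. Same-numbered RNA libraries deviated together from their group means across genes (correlations 0.19, 0.15 and 0.24), which comes from the data and not from the labels. An in-frame share has an exact (Clopper-Pearson) 95% interval.

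The genes and lists were chosen with earlier results of these data known. Named were the 4 genes with their ORFs and transcripts (at least 5 counts on average in a group), up to 3 genes per list, assay and direction with the largest change among those that passed, 8 further genes in any case, and the 3 genes most like each of the 4 in log2 CPM with a prior count of 2. Fuca1, Gadd45a, Mdm4, Rbl1, Ccna2 in footprints, the D cyclins, Rragc, Rraga in RNA, Asns, Atf4, Sco2, Trp53inp1, Polh, Fn1, Etv5 and Abca3 were named after their values were seen. Promoter sequences are RefSeq's for GRCm38.p6.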

Additional observations from a re-analysis of the deposited data

Results flagged for a closer look

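Within groups of 4 LUAD libraries, 4 of 90 gene and assay groups had 1 library far from the other 3, and chance gives about 1 in 20. LUAD RNA library 4 held Trp53 at 2.762 CPM, while the other 3 LUAD RNA libraries had 0 counts. The same library held Rraga RNA at 73.16 CPM, against 76.21 to 76.82 CPM in the other 3. LUAD footprint library 1 held Nkx2-1 at 0.3471 CPM, with 0 in the other 3, and Sfn at 158.3 CPM, against 117.6 to 123.7 CPM in the other 3.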

How the results depend on the processing

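The 16 alternatives include fits of a library set that holds a single AT2 library. The footprint falls of Trp53, Cdkn1a, Sesn2 and Ddit4l and the RNA falls of Cdkn1a, Sesn2 and Ddit4l kept their direction and passed under all 16. Trp53 RNA did so under 15 and missed in the set of AT2 3 with LUAD 3 and 4 (-6.92, adjusted p = 0.183, edgeR), where fewer samples were fitted. With 1 library left out, footprint changes ran from -7.38 to -6.44 for Trp53, -3.87 to -3.48 for Cdkn1a, -3.81 to -3.39 for Sesn2 and -5.90 to -5.20 for Ddit4l. In RNA they ran from -14.15 to -6.96, -3.71 to -3.32, -3.63 to -3.48 and -5.53 to -4.33. For footprints per RNA, uncalled throughout, they ran from 0.01 to 6.69, -0.33 to 0.13, -0.21 to 0.21 and -1.16 to -0.02, and scaling over all transcripts turned Cdkn1a to 0.19 and Sesn2 to 0.25.

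Counts of genes called moved more, and the cause was not tested. In footprints 1452 became 933 with the replicate block, 810 and 946 with limma on TPM (pseudocounts 0.5 and 1), 2882 with a term for the library set, 3562 and 2863 within the sets, and 841 to 1888 with 1 library left out (904, 841 and 856 without LUAD 2, 3 or 4). In RNA 2561 became 4037 within the set of AT2 1 and 2 with LUAD 1 and 2, and 1613 to 3362 with 1 library left out (1681 and 1613 without AT2 1 or 2). For footprints per RNA 53 became 375 with DESeq2, 90 with the block and 13 to 423 with 1 library left out (423 without AT2 footprint library 1, 241 without AT2 RNA library 3). For transcripts, footprint calls of 1897 became 5044 with DESeq2, 0 with the block and 439 to 2363 with 1 library left out, and RNA calls of 2964 became 5960, 923 and 1262 to 3951. The block changed no gene call of the 4 genes. Same-numbered footprint libraries deviated from their group means with correlations of 0.37, -0.30 and 0.30, so the numbers do not pair them. In-frame P-sites alone were 44 and 8 for the Trp53 ORFs of 390 and 74 codons, 32 and 32 for the Cdkn1a ORFs of 159 and 185 codons, 10 for Sesn2 and 6 for Ddit4l.

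Signs also turned for some other genes of the lists. Mdm4 footprints ran from -0.52 to 1.74 with 1 library left out and stood at 1.13 in the set of AT2 2 and 3 with LUAD 3 and 4. In the other footprint set Atf4 stood at -0.64 and Cebpb at -0.58. In the RNA set of AT2 3 with LUAD 3 and 4, Ddit4 stood at -1.25, Gadd45a at -0.68, Rap2b at -0.49, Sec13 at 0.37 and Slc3a2 at 0.43. Depth limits Ddit4l and Trp53 in LUAD, with 21 and 24 footprint counts and 51 and 72 RNA counts.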
